A study of Mus musculus with 8 samples.

Results

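The genes described here are 8 Toll-like receptor genes and the genes of 2 accessory proteins of Tlr4 in cultured mouse alveolar macrophages, the phagocytes that live in the air spaces of the lung. They are Tlr1, Tlr2, Tlr4, Tlr6, Tlr7, Tlr8, Tlr9, Tlr13, Cd14 and Ly96, taken by gene symbol, and they make up 10 of the 15521 genes in the table. Macrophages were washed out of mouse lungs, enriched by letting them adhere for 2 h and kept in medium to which 10 ng/ml of GM-CSF was added, the factor they need to survive. All groups share that culture. The vehicle group received DMSO alone, and the MSDC group received MSDC at 10 µM, in both cases 2 h before the stimulation period. The Poly(I:C) vehicle group received DMSO and then Poly(I:C) at 5 µg/mL, and the Poly(I:C) MSDC group received MSDC at 10 µM and then the same Poly(I:C). The sample labels put the stimulation at 24 h, and the series text calls it overnight. Each group has 2 bulk RNA-seq libraries. Poly(I:C) is a synthetic double-stranded RNA that stands in for viral RNA. MSDC is the start of the code names of several inhibitors of mitochondrial pyruvate import, and which of them was used is not stated in the labels. The strain, age and number of mice are not given in the labels, and the strain field repeats the treatment. Nothing says whether libraries of a group came from separate animals or cultures, so the p-values measure the spread between these libraries, which may be technical.

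Toll-like receptors are membrane proteins that bind conserved molecules of microbes through a horseshoe-shaped ectodomain and signal through a cytoplasmic TIR domain. Tlr1, Tlr2, Tlr4 and Tlr6 act at the cell surface on lipoproteins and lipopolysaccharide, whereas Tlr7, Tlr8, Tlr9 and Tlr13 act in endosomes on nucleic acids and need the carrier protein Unc93b1 and endosomal proteases to get there and to mature. Cd14 passes lipopolysaccharide on to the complex of Tlr4 with Ly96. Alveolar macrophages meet inhaled bacteria and viruses first, and the receptor for Poly(I:C) itself, Tlr3, is treated here only as a neighbour of the family.

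The sequence of the Tlr1 and Tlr6 genes bears on how their values can be read. Both genes lie on the minus strand of chromosome 5 (GRCm38), 19.5 kb apart, each with 1 coding exon, and their coding sequences of 2385 and 2418 bases contain the same run of 229 bases. In Tlr1 it lies at chr5:64925537-64925765 and in Tlr6 at chr5:64953828-64954056. The run, the longest that they share, is printed because a read that falls inside it cannot be assigned to 1 of these genes.

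Tlr1 and Tlr6: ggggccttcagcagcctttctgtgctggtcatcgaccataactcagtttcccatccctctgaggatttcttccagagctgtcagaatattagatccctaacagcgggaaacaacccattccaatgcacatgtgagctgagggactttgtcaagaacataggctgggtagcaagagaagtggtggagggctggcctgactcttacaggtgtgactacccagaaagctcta

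Of all windows of 100 bases in the Tlr1 coding sequence, 11.3% (259 of 2286) also occur in Tlr6. That is more than a run of 229 bases can hold, so the genes share other stretches that are not printed. In the other 27 pairs of these 8 receptors the longest shared run was 10 to 16 bases. Tlr1 and Tlr6 were the only genes of the 10 with counts that were not whole numbers, and the sum of their counts was whole (within 0.01) in each of the 8 libraries, from 729 to 870. Their split is therefore uncertain, and with 11.25 to 34.89 counts a library Tlr1 is the gene it touches most.

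Promoter windows (250 bases before to 50 after an annotated start, RefSeq, GRCm38.p6) were found for 6 of the 10 genes. The stretches upstream of Tlr9 and Tlr8 are shown because these genes were the furthest apart in the MSDC comparisons described next, Tlr9 falling the most and Tlr8 rising. The Tlr9 stretch lies at chr9:106222348-106222597 on the plus strand and the Tlr8 stretch at chrX:167264330-167264579 on the minus strand. Neither overlaps an annotated exon of the 10 genes, and exons of other genes were not checked. Capitals mark a match to TTCNNNGAA, the letters of a STAT site, which begins 106 bases before the Tlr8 start.

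Tlr9: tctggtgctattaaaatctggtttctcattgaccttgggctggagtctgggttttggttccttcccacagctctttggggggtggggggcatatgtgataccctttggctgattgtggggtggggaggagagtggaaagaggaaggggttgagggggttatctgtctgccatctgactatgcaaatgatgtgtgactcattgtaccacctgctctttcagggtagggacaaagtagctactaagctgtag

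Tlr8: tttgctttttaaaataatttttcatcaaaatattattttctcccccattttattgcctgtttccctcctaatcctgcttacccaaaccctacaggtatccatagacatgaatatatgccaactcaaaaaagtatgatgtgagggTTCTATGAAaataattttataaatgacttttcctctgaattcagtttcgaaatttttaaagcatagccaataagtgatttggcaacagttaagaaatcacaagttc

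The bases before Tlr8 are 31.2% G and C, and those before Tlr9 50.4%. The motifs of a STAT site, a PU.1 site, an interferon response element, NF-kB and PPAR were searched on both strands of the whole windows. The STAT letters TTCNNNGAA, which read the same on both strands, occur in 8.3% of all 32851 windows and in windows of Tlr1, Tlr6 and Tlr8. GAGGAAGT, the letters of a PU.1 site, occurs in 3.2% of windows, among them Tlr1 and Tlr9, where it starts 11 bases past the start site on the minus strand. The interferon response element occurs in 3.44% and was found for Tlr6. It lies in a Tlr6 window whose first bases past the start were not found in a GENCODE transcript of the gene. The other Tlr6 window does not hold it. The loose NF-kB motif occurs in 50.79% and was found for Tlr2 and Tlr6, and the PPAR motif occurs in 0.04% of all windows and in 0 of the 8 windows of these genes. A match says only that the letters are there.

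Levels are given in TPM (a share of all transcripts, scaled to gene length and to the same total in each library), which allows comparison between genes. Libraries held 28762425 to 29493223 counts. In the vehicle libraries Tlr2 was the most abundant of the 10, at 216 and 179 TPM, followed by Tlr7 at 126 and 103 TPM. Tlr8 (93.2 and 73.3 TPM) and Tlr13 (85.7 and 72.9 TPM) came next, and their values overlap. Tlr4 followed at 37.6 and 30.3 TPM, above Cd14 at 20.2 and 20.1 TPM. Tlr6 (16.4 and 14.1 TPM) and Ly96 (18.5 and 7.61 TPM) overlap, and Tlr9 (0.86 and 0.96 TPM) and Tlr1 (0.87 and 0.74 TPM) closed the order, also overlapping. These macrophages thus carried mostly Tlr2 on the surface side and mostly Tlr7, Tlr8 and Tlr13 on the endosomal side, and they held almost as much receptor transcript for the cell surface as for endosomes. The 4 surface receptors made up 46.9 and 47.2% of the summed TPM of the 8 receptors in the vehicle libraries. Vehicle replicate 1 was above replicate 2 for 9 of the 10 genes, with receptor sums of 576.8 and 474.5 TPM, a difference that touches each comparison with this group.

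**Figure D1:**
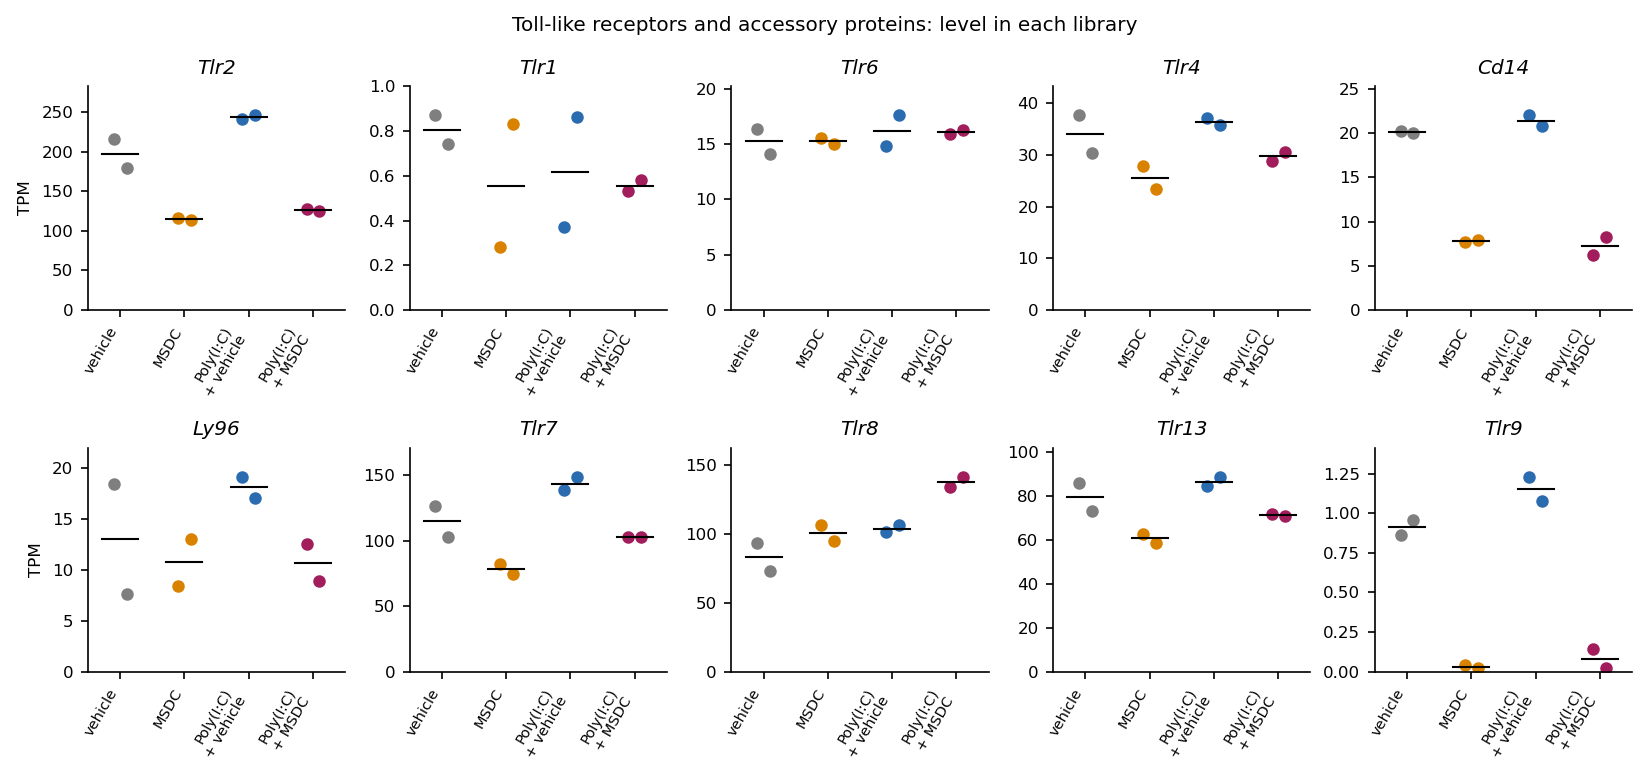
TPM of the 10 genes in each of the 8 libraries (points) with the mean of each group (black line), 1 panel a gene, each axis starting at 0. Tlr9 sits at 0.86 to 1.23 TPM in the libraries without MSDC and at 0.02 to 0.14 TPM in those with it, while Tlr6 stays between 14.1 and 17.6 TPM.

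The label of the cells was checked first. All 16 alveolar macrophage markers were above 1 TPM in all libraries, and their summed level was 17030 to 22140 TPM. The sum was higher with MSDC, at 19560 to 19920 TPM in vehicle against 21210 to 21540 TPM in MSDC. Under Poly(I:C) it was 17030 to 17280 TPM against 21340 to 22140 TPM. Single markers moved both ways. Chil3 was at 8536 and 8579 TPM in vehicle against 4807 and 4697 TPM in MSDC, and Ear1 at 119 and 120 TPM against 1613 and 1617 TPM. The 7 lists for other cell types summed to far less, but most of them differed with MSDC. Monocyte and interstitial macrophage markers summed to 12.2 to 14.1 TPM in vehicle against 6.94 to 9.0 TPM in MSDC, and to 9.29 to 11.6 TPM against 6.23 to 7.63 TPM under Poly(I:C), with 3 of 9 measured markers above 1 TPM in all libraries. Dendritic cell markers (2 of 7 above 1 TPM) summed to 7.4 to 8.34 TPM against 5.44 to 5.75 TPM, and to 11.9 to 13.65 TPM against 8.79 to 9.53 TPM under Poly(I:C). B cell markers (1 of 6 above 1 TPM), nearly all of it Cd22, summed to 92.9 to 94.7 TPM against 78.2 to 84.5 TPM, and to 88.0 to 88.5 TPM against 75.7 to 81.6 TPM. These 3 lists were thus lower with MSDC in both settings, without overlap, and so were endothelial and fibroblast markers (0 of 7 above 1 TPM), at 1.35 to 1.6 TPM against 0.73 to 0.82 TPM and at 1.76 to 1.83 TPM against 0.75 to 0.98 TPM. Epithelial markers (1 of 7 above 1 TPM, Cdh1) were lower without Poly(I:C), at 35.8 to 37.9 TPM against 27.8 to 31.2 TPM, and overlapped with it, at 23.1 to 25.1 TPM against 22.6 to 24.7 TPM. Neutrophil markers (1 of 5 above 1 TPM, S100a8) were higher with MSDC, at 27.8 to 34.2 TPM against 39.7 to 48.5 TPM and at 29.9 to 30.7 TPM against 33.3 to 44.1 TPM. T and NK cell markers (0 of 5 above 1 TPM) stayed at 0.23 to 0.78 TPM. The part of such cells in the results that follow was not tested. In bulk RNA, fewer cells of a type and less RNA per cell cannot be told apart.

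The first question was what MSDC did to these genes in cells that had not been stimulated. MSDC lowered Tlr2, Tlr4, Tlr7, Tlr9, Tlr13 and Cd14 and raised Tlr8, while Tlr1, Tlr6 and Ly96 did not pass the test. Of the 10 genes 7 were called (edgeR's quasi-likelihood test, adjusted p under 0.05 over all 11621 tested genes), 6 lower and 1 higher. Over all tested genes 23.5% were called in this comparison, 12.4% lower and 11.1% higher. The median log2 fold change was -0.44 over the 10 genes and -0.0015 over all tested genes. The TPM of the groups did not overlap for 7 of the 10, and did not overlap for 55.9% of all tested genes. Under Poly(I:C) the comparison of MSDC with vehicle gave the same counts, 6 lower and 1 higher, with 26.1% of all tested genes called, 13.6% lower and 12.5% higher. There the median was -0.42 over the 10 genes and -0.0024 over all, and groups did not overlap for 8 of the 10 and for 62.1% of all tested genes. All 10 genes passed the filter on low counts, but Tlr9 passed it only through the libraries without MSDC and so had to differ. Over the other 9, the counts were 5 lower and 1 higher in both comparisons, with medians of -0.38 without and -0.33 with Poly(I:C). These comparisons of MSDC share no library with each other.

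At the cell surface, the most abundant receptor transcript had the largest fall that was called. Tlr2, the receptor for bacterial lipoproteins (chr3:83836272-83841824, minus strand), was at 216 and 179 TPM in vehicle and at 116 and 114 TPM in MSDC. Under Poly(I:C) it was at 241 and 246 TPM with vehicle and at 128 and 125 TPM with MSDC. All 4 libraries with MSDC were below all 4 without it. The log2 fold change was -0.75 (SE 0.07, adjusted p = 7.9e-07) without Poly(I:C) and -0.98 (SE 0.07, adjusted p = 3.7e-08) with it, falls of 1.69-fold and 1.97-fold.

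For its partners no change was called. Tlr6, which pairs with Tlr2 for diacylated lipopeptides (chr5:64953092-64970942), was at 16.4 and 14.1 TPM in vehicle and at 15.6 and 15.0 TPM in MSDC, and at 14.8 and 17.6 TPM against 15.9 and 16.3 TPM under Poly(I:C). The groups overlap in both cases, with log2 differences of 0.03 (SE 0.10, adjusted p = 0.86) and -0.04 (SE 0.10, adjusted p = 0.824). Tlr1, the partner for triacylated lipopeptides (chr5:64924680-64933600), was at 0.87 and 0.74 TPM in vehicle and at 0.28 and 0.83 TPM in MSDC, and at 0.37 and 0.86 TPM against 0.53 and 0.58 TPM under Poly(I:C). Its log2 differences of -0.50 (SE 0.50) and -0.22 (SE 0.52) could not be told from 0 at this depth. The ratio of Tlr6 to Tlr2 TPM was 0.076 and 0.079 in vehicle and 0.13 in both MSDC libraries.

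Among the genes of lipopolysaccharide recognition, Cd14 changed the most. This lipid-anchored protein captures lipopolysaccharide and loads it onto the Tlr4 complex. Cd14 was at 20.2 and 20.1 TPM in vehicle and at 7.66 and 7.91 TPM in MSDC, and under Poly(I:C) at 22.0 and 20.8 TPM against 6.25 and 8.28 TPM. No library with MSDC reached the level of any without it. The log2 fold change was -1.34 (SE 0.13, adjusted p = 1.1e-06) without and -1.59 (SE 0.13, adjusted p = 1.6e-07) with Poly(I:C), falls of 2.53-fold and 3.02-fold.

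Tlr4, the signalling receptor for lipopolysaccharide (chr4:66827551-66846581, plus strand), moved less. It was at 37.6 and 30.3 TPM in vehicle and at 27.7 and 23.4 TPM in MSDC, and at 37.1 and 35.7 TPM against 28.7 and 30.6 TPM under Poly(I:C). The groups did not overlap, with log2 fold changes of -0.38 (SE 0.09, adjusted p = 0.00523) and -0.33 (SE 0.09, adjusted p = 0.0128). Without MSDC replicate 2 the first was -0.27 (adjusted p = 0.109) and not called, and without vehicle replicate 1 it was -0.24 and called. The second was not called without Poly(I:C) vehicle replicate 1 (-0.29, adjusted p = 0.0899) or Poly(I:C) MSDC replicate 1 (-0.29, adjusted p = 0.111), nor in limma on TPM.

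Ly96, the small protein that holds lipopolysaccharide inside the Tlr4 complex (chr1:16688456-16709605, plus strand), was uneven between libraries. It was at 18.5 and 7.61 TPM in vehicle, at 8.44 and 13.0 TPM in MSDC, at 19.2 and 17.1 TPM in Poly(I:C) vehicle and at 12.5 and 8.88 TPM in Poly(I:C) MSDC. The unstimulated groups overlap and the stimulated ones do not. The log2 differences of -0.23 (SE 0.32, adjusted p = 0.683) and -0.80 (SE 0.31, adjusted p = 0.0772) were not called, with 64 to 159 counts a library behind them. Cd14 TPM per Tlr4 TPM was 0.54 and 0.66 in vehicle and 0.28 and 0.34 in MSDC, and 0.59 and 0.58 against 0.22 and 0.27 under Poly(I:C). Ly96 TPM per Tlr4 TPM was 0.25 to 0.52 in the libraries without MSDC and 0.29 to 0.56 in those with it, which overlap.

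In the endosome, neighbouring genes went opposite ways. Tlr7 and Tlr8 both sense single-stranded RNA or its fragments and lie 39.0 kb apart on the minus strand of the X chromosome, at chrX:167303380-167330574 and chrX:167241123-167264329. Tlr7 was at 126 and 103 TPM in vehicle and at 82.1 and 74.8 TPM in MSDC, and under Poly(I:C) at 138.5 and 149 TPM against 103.0 and 102.8 TPM. It fell by 0.52 on the log2 scale (SE 0.08, adjusted p = 1.1e-04) without and by 0.51 (SE 0.08, adjusted p = 1.1e-04) with Poly(I:C).

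Tlr8 was at 93.2 and 73.3 TPM in vehicle and at 107 and 94.9 TPM in MSDC, and under Poly(I:C) at 101 and 106 TPM against 134 and 141 TPM. The MSDC libraries were the higher ones in both cases, with no overlap. The log2 fold change was 0.30 (SE 0.08, adjusted p = 0.0147) without and 0.37 (SE 0.08, adjusted p = 0.00368) with Poly(I:C). The first of these was not called without vehicle replicate 2 (0.16, adjusted p = 0.092) or MSDC replicate 1 (0.23, adjusted p = 0.175), was 0.46 without vehicle replicate 1, and was not called in 3 limma fits on FPKM or TPM. The second was called in all 17 alternatives.

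The ratio of Tlr7 to Tlr8 TPM was 1.36 and 1.41 in vehicle and 0.77 and 0.79 in MSDC. Under Poly(I:C) it was 1.37 and 1.4 with vehicle and 0.77 and 0.73 with MSDC. Tlr7 was thus the more abundant of the pair in all 4 libraries without MSDC and Tlr8 in all 4 with it. In the Poly(I:C) MSDC libraries Tlr8 stood first of the 10 genes, above Tlr2. Cd14 had dropped below Tlr6 and Ly96 in both groups with MSDC.

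**Figure D2:**
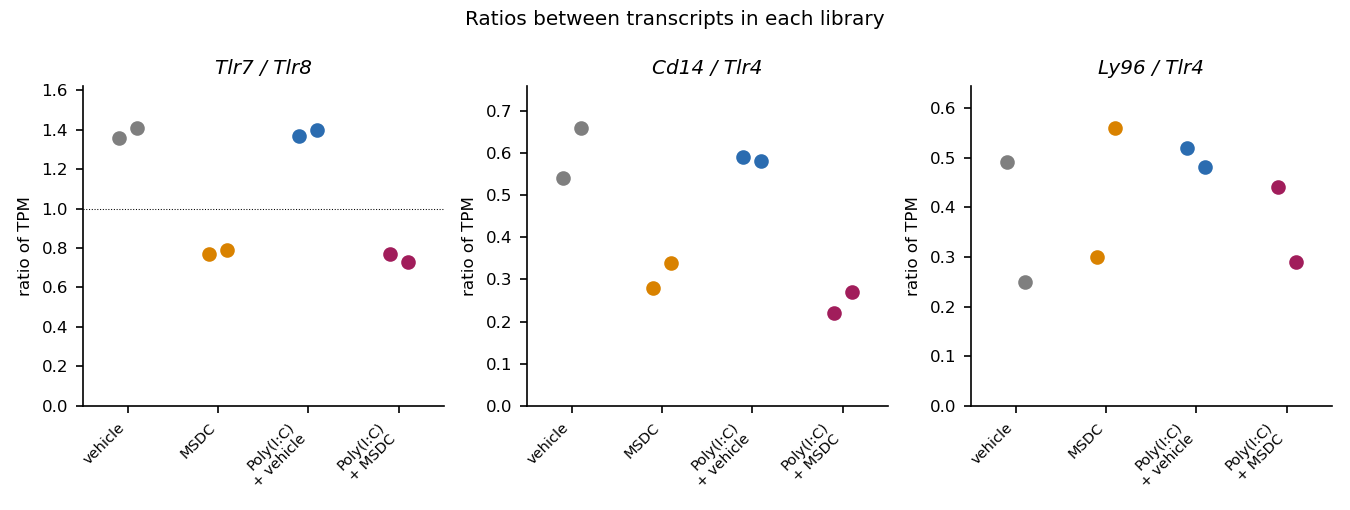
Ratio of TPM values between transcripts in each library, for Tlr7 to Tlr8, Cd14 to Tlr4 and Ly96 to Tlr4, with points as libraries and a dotted line at equal levels in the first panel. Tlr7 to Tlr8 lies at 1.36 to 1.41 in the 4 libraries without MSDC and at 0.73 to 0.79 in the 4 with it, while Ly96 to Tlr4 overlaps between groups.

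Tlr13, which recognises a stretch of bacterial ribosomal RNA and is the other X-linked member (chrX:106143275-106160493, plus strand), was at 85.7 and 72.9 TPM in vehicle and at 62.7 and 58.4 TPM in MSDC. Under Poly(I:C) it was at 84.1 and 88.6 TPM with vehicle and at 71.5 and 70.7 TPM with MSDC. The groups did not overlap, and the falls were of 1.28-fold (log2 fold change -0.36, SE 0.07, adjusted p = 0.00129) and 1.24-fold (-0.31, SE 0.07, adjusted p = 0.00364).

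Tlr9, the receptor for unmethylated CpG DNA (chr9:106222598-106226876, plus strand), was scarce in all groups and close to 0 with MSDC. It had 44 and 52 counts in the vehicle libraries and 2 and 1 in the MSDC libraries, and 65 and 56 against 7 and 1 under Poly(I:C). In TPM these are 0.86 and 0.96 against 0.04 and 0.02, and 1.23 and 1.08 against 0.14 and 0.02. Scaled to depth, vehicle was 32.1 times MSDC (95% counting interval 10.7 to 159) without Poly(I:C) and 15.2 times (7.46 to 35.9) with it, where the intervals cover counting error only. The fitted log2 fold changes, -4.86 (SE 0.65) and -3.88 (SE 0.53), rest on so few counts that they depend on the prior count of the fit, and since Tlr9 passed the filter only through the groups without MSDC they are given as a description. The second was -5.75 without Poly(I:C) MSDC replicate 1, which holds 7 of the counts, and -3.09 without replicate 2. B cells and plasmacytoid dendritic cells are known to be rich in Tlr9. Of the B cell markers, Cd79a, Cd79b, Ms4a1 and Pax5 were at 0 to 0.11 TPM in all libraries, while Cd22 was at 92.87 and 94.55 TPM in vehicle against 84.39 and 78.1 TPM in MSDC, and at 88.38 and 87.95 TPM against 81.51 and 75.54 TPM under Poly(I:C), lower with MSDC as Tlr9 was. Siglech, a marker of plasmacytoid dendritic cells, is not among the genes of the table. Of the dendritic cell list, Tcf4 was at 2.68 and 2.65 TPM in vehicle and at 2.65 TPM in both MSDC libraries. Under Poly(I:C) Tcf4 was at 5.07 and 5.18 TPM against 4.86 and 4.81 TPM. Clec9a, of the same list, was at 3.99 and 3.14 TPM in vehicle against 1.55 and 2.15 TPM in MSDC. Under Poly(I:C) Clec9a was at 5.41 and 7.05 TPM against 3.67 and 2.92 TPM. The part of such cells in the Tlr9 values was not tested.

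**Figure D3:**
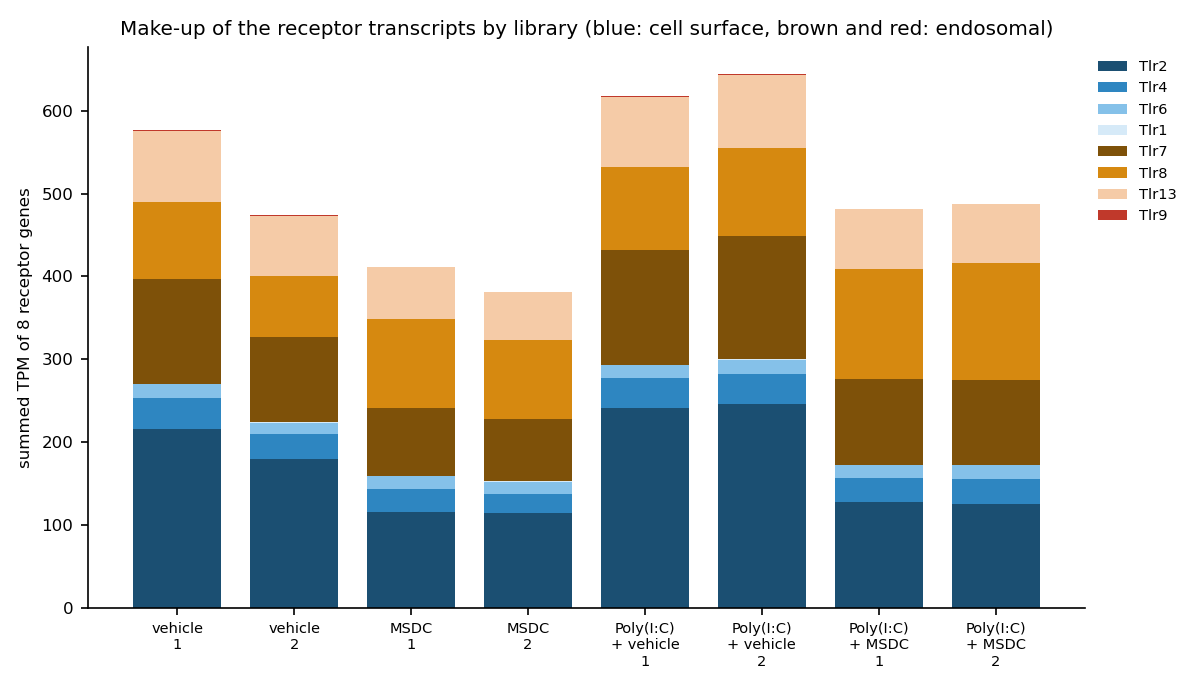
Summed TPM of the 8 receptor genes in each library, stacked by gene, with cell surface receptors in blue and endosomal receptors in brown and red. The surface part is 35.4 to 40.2% in the 4 libraries with MSDC and 46.5 to 47.4% in the 4 without it.

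Added up, the 8 receptors made a smaller and differently composed pool with MSDC. Surface receptors summed to 270.6 and 224.0 TPM in vehicle and to 159.3 and 153.1 TPM in MSDC, and to 292.8 and 300.0 TPM against 172.7 and 172.3 TPM under Poly(I:C). Endosomal receptors summed to 306.2 and 250.4 TPM in vehicle and to 251.6 and 228.2 TPM in MSDC, which overlap, and to 325.2 and 344.8 TPM against 308.4 and 314.8 TPM under Poly(I:C). The surface share was 46.9 and 47.2% in vehicle, 38.8 and 40.2% in MSDC, 47.4 and 46.5% in Poly(I:C) vehicle and 35.9 and 35.4% in Poly(I:C) MSDC. Tlr2 accounted for 37.4 to 38.9% of the pool without MSDC and 25.6 to 29.9% with it, and Tlr8 for 15.4 to 16.5% and 24.9 to 29.0%.

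The next question was what Poly(I:C) did to the 10 genes. In vehicle-treated cells it raised Tlr2, Tlr7 and Tlr8, each by about the same small amount. Of the 10 genes 3 were called, all higher, beside 11.6% of all tested genes, 7.52% higher and 4.1% lower. The median log2 fold change was 0.27 over the 10 genes and 0.0 over all, and groups did not overlap for 5 of the 10 and for 52.2% of all tested genes. In MSDC-treated cells 2 of the 10 were called, Tlr7 and Tlr8, both higher, beside 6.32% of all tested genes, 4.82% higher and 1.5% lower. The median was 0.18 over the 10 and 0.0016 over all, and groups did not overlap for 6 of the 10 and for 47.8% of all tested genes. Each of these comparisons shares a group with each of the MSDC comparisons.

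Tlr7 went from 126 and 103 TPM to 138.5 and 149 TPM in vehicle, and from 82.1 and 74.8 TPM to 103.0 and 102.8 TPM in MSDC, with no overlap. It rose by 0.38 (log2, SE 0.08, adjusted p = 0.0034) and 0.39 (SE 0.08, adjusted p = 0.00463). The second call was lost without MSDC replicate 2 (0.32, adjusted p = 0.138) or Poly(I:C) MSDC replicate 1 (0.38, adjusted p = 0.0559). Tlr8 went from 93.2 and 73.3 TPM to 101 and 106 TPM in vehicle and from 107 and 94.9 TPM to 134 and 141 TPM in MSDC. It rose by 0.39 (SE 0.08, adjusted p = 0.00581) and 0.45 (SE 0.08, adjusted p = 0.00252). The first rise was 0.24 without vehicle replicate 2 and was not called without Poly(I:C) vehicle replicate 2 (0.36, adjusted p = 0.0518) or in limma on TPM. The second was not called without MSDC replicate 2 (0.37, adjusted p = 0.0942) or Poly(I:C) MSDC replicate 2 (0.42, adjusted p = 0.0502). Tlr2 rose by 0.36 (SE 0.07, adjusted p = 0.00242) in vehicle, and its difference in MSDC was 0.14 (SE 0.07, adjusted p = 0.365).

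The count of called genes for Poly(I:C) depends on single libraries. In vehicle it was 6 without vehicle replicate 1, with Tlr4, Tlr13 and Ly96 added. In MSDC it was 0 without MSDC replicate 2, 1 without Poly(I:C) MSDC replicate 1 or replicate 2, and 4 with only the groups compared in the fit. Tlr4 differed by 0.16 (SE 0.09, adjusted p = 0.301) in vehicle and 0.21 (SE 0.09, adjusted p = 0.239) in MSDC, and Tlr13 by 0.18 (SE 0.07, adjusted p = 0.119) and 0.23 (SE 0.07, adjusted p = 0.0755). Cd14 differed by 0.15 (SE 0.12) and -0.10 (SE 0.14), Tlr6 by 0.13 (SE 0.10) and 0.06 (SE 0.10), and Ly96 by 0.56 (SE 0.31) and -0.00025 (SE 0.33). Tlr9 differed by 0.39 (SE 0.37) and 1.37 (SE 1.02), and Tlr1 by -0.31 (SE 0.49) and -0.03 (SE 0.52). None of these differences was called.

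**Figure D4:**
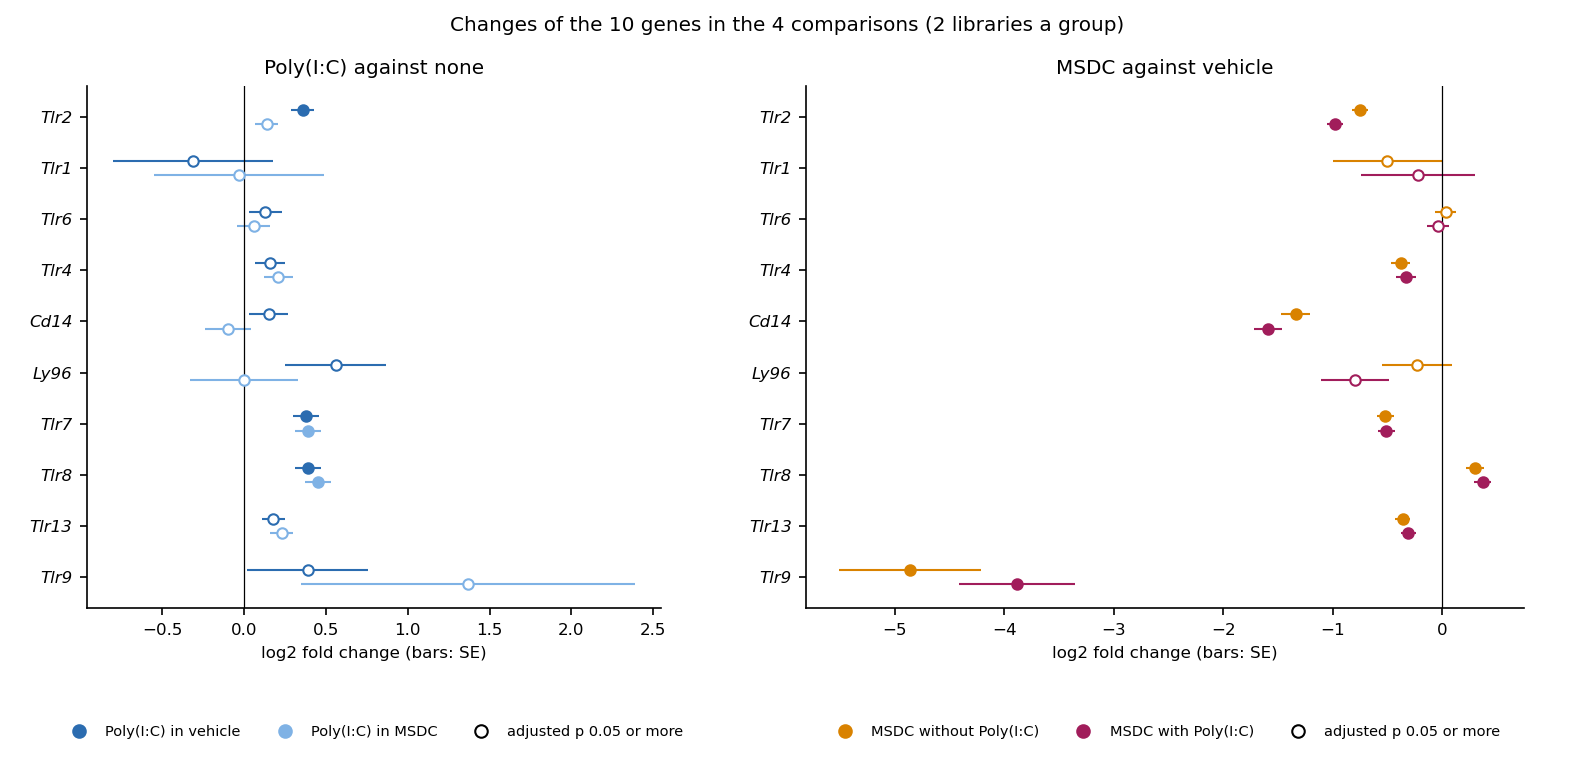
Log2 fold change of the 10 genes (points) with its SE (bars) for Poly(I:C) in vehicle and in MSDC (left) and for MSDC without and with Poly(I:C) (right), filled where the adjusted p was under 0.05. Tlr8 is the only filled point above 0 on the right, at 0.30 and 0.37, and Tlr9 is the lowest, at -4.86 and -3.88.

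Whether MSDC altered the response to Poly(I:C) was tested as the interaction, which is negative where the response is smaller with MSDC. It was called for 0 of the 10 genes with edgeR, DESeq2 and limma, beside 0.224% of all tested genes with edgeR, and for 1 of the 10 (Tlr2) the unadjusted p was under 0.05. In edgeR, Tlr2 had an interaction of -0.23 (SE 0.10, adjusted p = 0.738) and Cd14 one of -0.25 (SE 0.19, adjusted p = 0.894). A p that misses the threshold does not show that the responses are alike.

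Of the other genes of the family, 3 were tested, Tlr3, Tlr5 and Tlr11. Tlr3, the endosomal receptor for double-stranded RNA, was at 5.26 and 4.02 TPM in vehicle and at 15.0 and 17.6 TPM in Poly(I:C) vehicle. Its rise was 1.87 on the log2 scale both in vehicle (SE 0.12) and in MSDC (SE 0.13), from 3.5 and 3.02 TPM to 12.0 and 12.3 TPM. MSDC lowered it by 0.45 without (SE 0.14, adjusted p = 0.0249) and with Poly(I:C) (SE 0.11, adjusted p = 0.00685), the first not called without vehicle replicate 1 (-0.26), MSDC replicate 1 or MSDC replicate 2, and the second not called without Poly(I:C) vehicle replicate 2 or Poly(I:C) MSDC replicate 1. Tlr5, the flagellin receptor, rose with MSDC from 0.87 and 0.8 TPM to 3.24 and 2.85 TPM (1.90, SE 0.21, adjusted p = 5.0e-06), and under Poly(I:C) from 0.72 and 0.88 TPM to 3.84 and 4.03 TPM (2.24, SE 0.21, adjusted p = 6.6e-07). Tlr11, a receptor for a protozoan profilin, rose with Poly(I:C) by 1.51 (SE 0.35) in vehicle and 2.86 (SE 0.48) in MSDC. Its levels were 0.94 and 0.42 TPM in vehicle, 0.19 and 0.1 TPM in MSDC, 1.61 and 2.07 TPM in Poly(I:C) vehicle and 1.01 and 1.13 TPM in Poly(I:C) MSDC. Under Poly(I:C) its difference with MSDC was -0.82 (SE 0.33, adjusted p = 0.0876) and not called. Its fall with MSDC of 2.17 without Poly(I:C) (SE 0.50, adjusted p = 0.00458) was not called without vehicle replicate 1 or MSDC replicate 2, and its rise in vehicle not without vehicle replicate 2 or Poly(I:C) vehicle replicate 2. Tlr12 had 2 counts in 1 library and none in the others and was not tested.

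The next list holds genes that bring ligands to these receptors or resemble them. Of 9 tested, MSDC raised 2 and lowered 4, both without and with Poly(I:C), and these counts held in all 17 alternatives. Of all tested genes 11.1% were called higher and 12.4% lower without Poly(I:C), and 12.5% and 13.6% with it. The list's median log2 fold change was -0.01 and -0.04. Cd36, a scavenger receptor that hands lipids to Tlr2 and Tlr6, was at 498 and 439 TPM in vehicle and at 1931 and 1836 TPM in MSDC (log2 fold change 2.03, SE 0.06, and 2.00, SE 0.06, under Poly(I:C)). Marco, a scavenger receptor of alveolar macrophages, rose by 1.53 (SE 0.09) and 1.65 (SE 0.09). Ly86, the partner of Cd180, was at 88.7 and 78.0 TPM in vehicle and at 21.4 and 18.3 TPM in MSDC, with log2 fold changes of -2.04 (SE 0.11) and -1.65 (SE 0.09). Cd180, a receptor related to Tlr4 that has no TIR domain, fell by 1.76 (SE 0.11) and 1.79 (SE 0.10). The scavenger receptor Msr1 fell by 0.97 and 1.06, and Clec7a, the beta-glucan receptor, by 0.73 and 1.12. Poly(I:C) raised 5 of the 9 in vehicle, namely Cd180, Ly86, Clec7a, Msr1 and Itgam, and lowered Marco by 0.36, which was not called without vehicle replicate 2 (-0.18) or Poly(I:C) vehicle replicate 2. In MSDC it raised 4, the same without Itgam. Over the alternatives 5 to 6 rose and 0 to 1 fell in vehicle, and 3 to 4 rose in MSDC. Of all tested genes Poly(I:C) raised 7.52% and lowered 4.1% in vehicle, and raised 4.82% and lowered 1.5% in MSDC. Ly86 rose by 1.27 (SE 0.09) in vehicle and 1.66 (SE 0.11) in MSDC.

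Among genes that fold, carry or cleave the receptors, 15 were tested. With MSDC 6 fell, 1 rose and 8 did not pass the test, both without and with Poly(I:C) (5 to 7 and 6 falling over the alternatives), beside 12.4% and 13.6% of all tested genes lower and 11.1% and 12.5% higher. The list's median log2 fold change was -0.14 and -0.11. The genes that fell were not all the same. Hsp90b1, a chaperone of the receptors, fell only without Poly(I:C) (-0.17, adjusted p = 0.0484), a call lost in 9 of the 17 alternatives. Cnpy3, named after its values were seen, fell only with Poly(I:C) (-0.35, adjusted p = 0.00202). Without it the Cnpy3 difference of -0.17 (adjusted p = 0.132) was not called. Unc93b1, which carries endosomal receptors out of the endoplasmic reticulum, was at 230 and 209.7 TPM in vehicle and at 139 and 147 TPM in MSDC, and at 362 and 375 TPM against 239 and 252 TPM under Poly(I:C). Its log2 fold changes with MSDC were -0.59 (SE 0.06, adjusted p = 2.9e-06) and -0.62 (SE 0.06, adjusted p = 1.5e-06). Among the proteases that cleave the ectodomains of endosomal receptors, Ctss fell by 0.70 and 0.64 and Lgmn by 0.67 and 0.89 (SE 0.06 for each). Rab7b, a GTPase of late endosomal traffic, was at 53.4 and 54.1 TPM in vehicle and at 27.2 and 26.6 TPM in MSDC, with log2 fold changes of -0.97 and -1.12 (SE 0.07 for each). The gene that rose was Slc15a3, a peptide and histidine transporter of endolysosomes, by 0.52 and 0.47, named after its values were seen. Poly(I:C) raised 6 of the 15 in vehicle (3 to 6 over the alternatives, beside 7.52% of all tested genes) and 4 in MSDC (2 to 6, beside 4.82%), led by Unc93b1 at 0.81 and 0.78 (SE 0.06 for each) and Ctss at 0.47 and 0.53. The others in MSDC were Hsp90b1 at 0.33 and Ctsk, a protease, at 0.23. Ctsk was among the 3 genes named by smallest p only for MSDC without Poly(I:C). Hsp90b1 was not called without MSDC replicate 2, and Ctsk was not called in 8 of the 17 alternatives.

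Among adaptors, kinases and transcription factors below the receptors, changes went both ways. Of 23 tested, MSDC raised 6 and lowered 5 without Poly(I:C) (3 to 6 and 5 over the alternatives) and raised 4 and lowered 5 with it (3 to 5 and 3 to 5), the 4 being Pik3ap1, Tab3, Tbk1 and Ripk1. Of all tested genes 11.1% were higher and 12.4% lower without Poly(I:C), and 12.5% and 13.6% with it. The list's median log2 fold change was 0.01 in both. Irf5, a transcription factor that Myd88 signalling activates, was at 137.5 and 124 TPM in vehicle and at 29.4 and 29.5 TPM in MSDC, and at 156 and 158 TPM against 42.2 and 45.1 TPM under Poly(I:C). It fell by 2.12 (SE 0.07, adjusted p = 7.4e-12) and 1.89 (SE 0.07, adjusted p = 1.8e-11). The other genes that fell in both were Irf7, Ticam1, Ticam2 and Irak2. Irf7 fell by 1.87 without Poly(I:C) (1.07 without vehicle replicate 1) and by 1.12 with it, the latter not called in DESeq2 and in limma on FPKM or TPM with a pseudocount of 0.1. Ticam1 and Ticam2, the adaptors for Tlr3 and Tlr4, fell by 0.39 and 0.40 and, under Poly(I:C), by 0.33 and 0.34, and Irak2, a kinase below the receptors, by 0.32 and 0.27. Under Poly(I:C) Ticam1 was not called without replicate 2 of either group, Ticam2 without Poly(I:C) vehicle replicate 1, and Irak2 without Poly(I:C) MSDC replicate 2. Pik3ap1, an adaptor that links receptors to PI3-kinase, rose by 0.84 and 0.85 (SE 0.05 for each), and Tab3, a partner of the kinase Tak1, by 0.80 and 0.71 (SE 0.11 for each). Myd88 itself was at 109 and 103 TPM in vehicle and 125 and 113 TPM in MSDC, a difference of 0.20 (adjusted p = 0.0486) that was not called in 14 of 17 alternatives and was 0.13 without MSDC replicate 1. Poly(I:C) raised 5 of the 23 in vehicle (2 to 5 over the alternatives), namely Irf7, Irf5, Myd88, Tbk1 and Ikbke, and 3 in MSDC (2 to 5), Irf7, Irf5 and Tbk1, beside 7.52% and 4.82% of all tested genes. Of these, Irf7 and Irf5 kept their calls in all 17 alternatives. In vehicle Myd88 (0.31) was not called without Poly(I:C) vehicle replicate 1 (0.26, adjusted p = 0.0983), and Tbk1 (0.28) and Ikbke (0.35) were not called in 4 and 10 of the 17. Tbk1 in MSDC (0.23) was not called in 14 of the 17. Irf7 rose the most, by 6.44 (SE 0.27) in vehicle and 7.18 (SE 0.31) in MSDC.

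Among inhibitors of receptor signalling most genes did not pass the test. Of 16 tested, 5 fell and 1 rose without Poly(I:C) (4 to 6 and 1 to 2 over the alternatives), and 6 fell and 1 rose with it. Of all tested genes 12.4% were lower and 11.1% higher without Poly(I:C), and 13.6% and 12.5% with it, and the list's median log2 fold change was -0.09 and -0.11. Socs1, an inhibitor of cytokine and receptor signalling, was at 12.2 and 11.9 TPM in vehicle and at 4.97 and 3.96 TPM in MSDC (-1.39, SE 0.16, and -0.99, SE 0.13, under Poly(I:C)). The inhibitory receptor genes Lilrb4a and Pirb fell by 0.65 and 0.28, and under Poly(I:C) by 0.88 and 0.46 (SE 0.06 for each). Nlrx1 and Tnip1, named after their values were seen, fell by 0.34 and 0.30, and under Poly(I:C) by 0.42 and 0.50. Without Poly(I:C), Nlrx1 was not called without MSDC replicate 1 (-0.27, adjusted p = 0.0749), and Tnip1 not without vehicle replicate 2 (-0.19, adjusted p = 0.0722) or MSDC replicate 2 (-0.26, adjusted p = 0.097). Tnfaip3, which encodes the ubiquitin editor A20, fell under Poly(I:C) by 0.67 (SE 0.09, adjusted p = 3.0e-05). Without Poly(I:C) its difference of -0.25 (adjusted p = 0.0618) was not called. Tnip3, an inhibitor of NF-kB signalling, rose by 1.35 (SE 0.13) and 0.96 (SE 0.13). Poly(I:C) raised Socs1 by 1.28 (SE 0.14) in vehicle and 1.68 (SE 0.16) in MSDC, and Tnfaip3 by 0.50 (SE 0.09) in vehicle. These were the 2 of 16 called in vehicle and the 1 in MSDC, beside 11.6% and 6.32% of all tested genes, so these shares lie near the background.

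**Figure D5:**
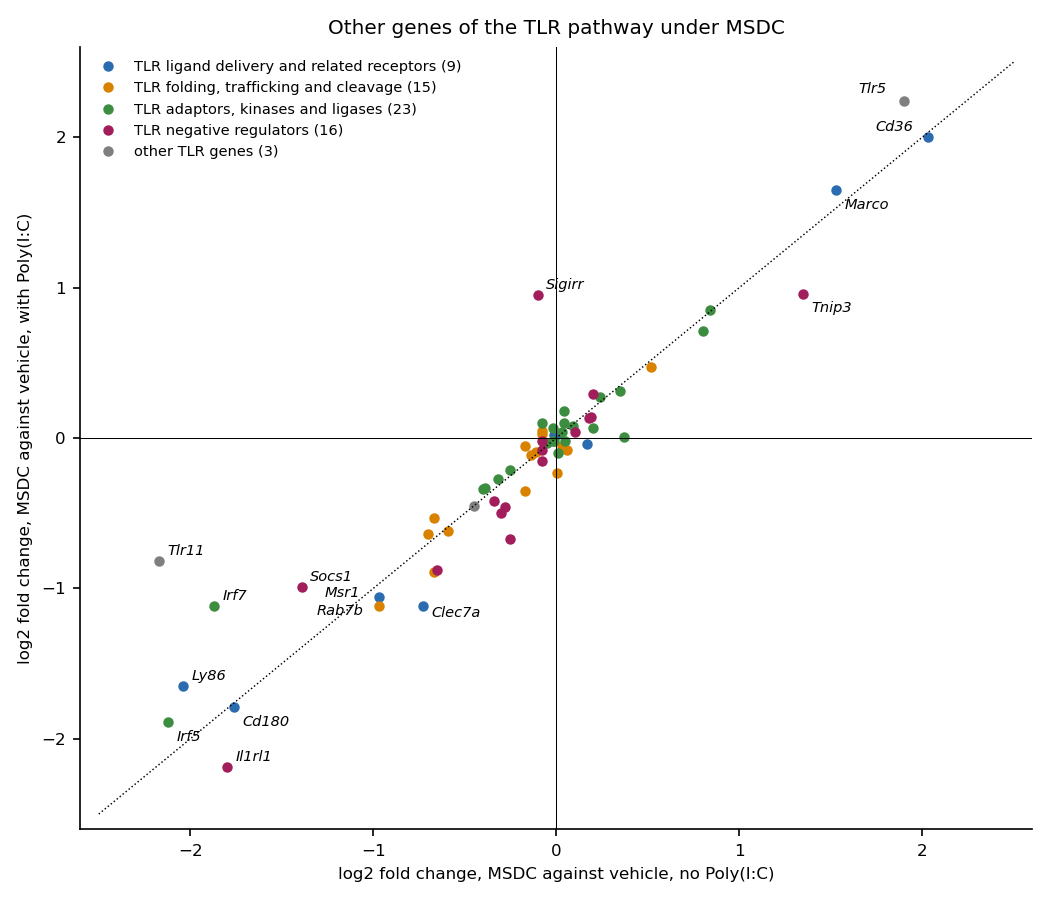
Log2 fold change with MSDC without Poly(I:C) (horizontal axis) and with it (vertical axis) for the other tested genes of the pathway, coloured by list, with the dotted line marking equal values and names given from 0.9 on either axis. Cd36, Tlr5 and Marco lie at the upper right and Irf5, Ly86 and Cd180 at the lower left, while Il1rl1 and Sigirr are drawn but were not called.

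The 10 genes were also compared with all tested genes by the likeness of their pattern, as Pearson's r of log2 CPM over the 8 libraries, which share treatments and so are not independent points. Tlr7 and Tlr13 had r = 0.99 with each other, and Camkk2 was the closest other gene to both (0.993 and 0.997). Cd14 was closest to Map4k1 (0.998), Tlr9 to Zfp385a (0.995) and Tlr8 to Srsf10 (0.989). Among the 10, Tlr8 stood apart from the other abundant receptors, with r of -0.33 with Tlr2, 0.04 with Tlr7 and -0.03 with Tlr13, whereas Tlr2 had 0.92 with Tlr7 and 0.94 with Tlr13.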

How the data were processed

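Bulk RNA-seq was analysed for 8 libraries in 4 groups of 2. Expected counts, TPM and FPKM were deposited by the authors for 15521 genes, named so per the file headers. The counts are not scaled to depth, the TPM values were scaled by the authors to length and to the same total in each library, and the FPKM values by the authors to length and depth. Per the submitters' processing notes the tools were Bowtie2 2.3.4, TopHat2 2.1.1 and Cuffdiff, with GRCm38 (mm10) as the genome, and their roles are not stated there. Between 5.95 and 7.19% of count values in a library were not whole, and all were rounded.

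Genes were filtered (filterByExpr, minimum count 10, 11621 kept), scaled by TMM (0.985 to 1.027) and fitted in 1 model of 4 groups over all 8 libraries with edgeR 4.0.16 (R 4.3.3) and its quasi-likelihood test, two-sided, with Benjamini-Hochberg adjustment over all tested genes and calls at an adjusted p under 0.05. The SE was derived from the fold change and the F statistic. Because the fit shares its spread (4 residual degrees of freedom), uneven vehicle libraries weigh on all comparisons. Data were simulated for MSDC without Poly(I:C) over 11621 genes, 200 of them changed. The median recovery in 20 draws was 74.6% (62.7 to 85.1%) of genes changed 1.5-fold, 88.1% (80.6 to 95.5%) of those changed 2-fold and 97% (90.9 to 100%) of those changed 4-fold. Unchanged genes made up 7.55% of calls (4.7 to 9.6%), more than the nominal 5%. In the real comparison a far larger share, 23.5% of tested genes, was called, so these simulated rates may not carry over. Alternatives were library totals, upper quartile factors, DESeq2 1.42.0, limma 3.58.1 on log2 FPKM or TPM, no filter, only the groups compared, a replicate block, and each library left out in turn. Replicate numbers did not pair the samples (correlations of deviations -0.026 to 0.034 between groups).

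The 10 genes, the pathway lists and the marker lists were chosen with earlier results of these data known. Genes named are the 10, the rest of the family, up to 3 called genes with the smallest p of each list and comparison, and the nearest genes by correlation, the report printing part of them. Itgam, Slc15a3, Cnpy3, Ikbke, Ticam1, Ticam2, Irak2, Nlrx1, Tnip1, Ripk1, Il1rl1 and Sigirr were named after their values were seen. Sequences come from RefSeq (GRCm38.p6) and GENCODE M21 on GRCm38. For 23 genes whose symbol had become a date, the symbol was restored through the gene identifier.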

Additional observations from a re-analysis of the deposited data

Results flagged for a closer look

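Clec7a, the beta-glucan receptor gene of the ligand delivery list, was the one gene of the lists for which the response to Poly(I:C) differed between MSDC and vehicle by a test of the difference itself, with an interaction of -0.39 on the log2 scale (edgeR, adjusted p = 0.0434). It went from 2400 and 2196 TPM to 3543 and 3444 TPM in vehicle, a rise of 0.67 (SE 0.05), and from 1348 and 1369 TPM to 1623 and 1661 TPM in MSDC, a rise of 0.28 (SE 0.05). The interaction was not called in 12 of 16 alternatives (adjusted p 2.8e-04 to 0.404), among them 6 that left out a library of the MSDC or Poly(I:C) groups.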

How the results depend on the processing

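In 17 alternatives (16 for the interaction) no called value of the 10 genes changed sign, and the counts called for MSDC stayed at 6 to 7 without and 6 to 8 with Poly(I:C). These counts include Tlr9, which passed the filter only through the libraries without MSDC. Over the other 9 genes the main count was 6 in both MSDC comparisons. For Poly(I:C) in vehicle the count of 3 ranged from 2 to 6 when 1 library was left out. For Poly(I:C) in MSDC the count of 2 was 4 with only the groups compared and 0 to 3 when 1 library was left out. The interaction was called for 0 of the 10 throughout. With a replicate block no call of the 10 genes changed and the counts stayed at 3, 2, 7, 7 and 0. The numbers did not pair the samples.

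Values that were not called changed sign as follows. For Poly(I:C) in MSDC, Tlr1 was 0.09 in limma on FPKM, 0.14 and 0.02 on TPM with pseudocounts of 0.1 and 1, and 0.03 with the replicate block, and Ly96 was 0.01 in both limma fits on TPM. Tlr6 was -0.00054 for MSDC without Poly(I:C) in limma on FPKM. With 1 library left out, Tlr1 ranged from -1.0 to 0.16 for Poly(I:C) in vehicle, -0.62 to 0.99 for Poly(I:C) in MSDC, -1.54 to 0.10 for MSDC alone and -0.68 to 0.45 for MSDC with Poly(I:C). Tlr6 ranged from -9.7e-05 to 0.25 for Poly(I:C) in vehicle, -0.04 to 0.12 for MSDC alone and -0.16 to 0.08 for MSDC with Poly(I:C). For Poly(I:C) in MSDC, Tlr9 ranged from -0.50 to 2.16, Cd14 from -0.31 to 0.09 and Ly96 from -0.28 to 0.34, and for MSDC alone Ly96 ranged from -0.72 to 0.50. The cause was not tested.

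TPM recomputed from the counts differed from the deposited TPM by at most 1.8% for the 10 genes other than Tlr1 and Tlr9. That value does not cover Tlr1 and Tlr9. The fitted size of the Tlr9 fall ranged from -5.40 to -0.89 without Poly(I:C) and from -5.75 to -1.0 with it, the small values coming from fits with a pseudocount of 1 TPM, above its level in most libraries. Depth limits Tlr1 and Tlr9, at 65 counts a library or fewer. With 2 libraries a group, 1 uneven library such as vehicle replicate 1 moves calls.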
